A study of Rattus norvegicus with 14 samples.

Results

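Cpt1a, Hadhb, Eci1 and Acaa2 encode 4 enzymes that bring fatty acids into mitochondria and shorten them there. They were found by gene symbol in the platform annotation, 4 of the 2670 genes that the annotation names by 1 symbol, and were measured in rat liver by 6 of the 4502 probe sets of an Affymetrix array. A probe set is a group of short probes for a transcript. The 6 groups were Kyoto rats fed chow with 1% orotic acid for 1, 3 and 14 days (2 arrays each), Wistar rats fed the same chow for 3 days (2 arrays) and 14 days (3 arrays), and 3 arrays of Wistar controls without orotic acid. Orotic acid, an intermediate of pyrimidine synthesis, gives rats a reversible fatty liver. All RNA came from the left lateral lobe of the liver. The strain is called Kyoto in the labels, which give neither age nor sex, and Kyoto controls and Wistar day 1 were not analysed here, so a change from an unfed liver can be given for Wistar alone.

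Long-chain fatty acids are joined to coenzyme A, handed to carnitine at the outer mitochondrial membrane by carnitine palmitoyltransferase 1, and released in the matrix. There, cycles of dehydrogenation, hydration, dehydrogenation and thiolysis cut off acetyl-CoA, which the liver burns or turns into ketone bodies. Carnitine palmitoyltransferase 1 is the step at which malonyl-CoA, the precursor of fatty acid synthesis, holds the pathway back, and many genes of the pathway are targets of the fatty acid receptor PPAR-alpha. A fatty liver stores triglyceride that is neither burnt nor exported, and the comparisons ask how the transcripts of the burning side stood over time in each strain.

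Each of the 4 genes has a place of its own in this sequence. Cpt1a encodes the liver form of carnitine palmitoyltransferase 1. Hadhb encodes the beta subunit of the mitochondrial trifunctional protein, which carries the thiolase of long chains, and its partner gene Hadha encodes the alpha subunit. Eci1 encodes an isomerase that moves the double bond of unsaturated fatty acids to where the cycle can use it. Acaa2 encodes the mitochondrial thiolase of medium-chain substrates.

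The start regions of the genes are shown because the 4 transcripts are followed together below, and because PPAR-alpha and other nuclear receptors bind repeats of the hexamer AGGTCA. RefSeq gives a window of 250 bases before to 50 after the start on build GRCr8 for 3 of the 4 genes, Cpt1a at chr1:209995910-209996209 on the plus strand, Hadhb at chr6:31907451-31907750 on the minus strand and Eci1 at chr10:13961000-13961299 on the plus strand. Each is printed 5′ to 3′ along the gene, with capitals where the letters AGGTCA, or TGACCT on the other strand, occur.
Cpt1a: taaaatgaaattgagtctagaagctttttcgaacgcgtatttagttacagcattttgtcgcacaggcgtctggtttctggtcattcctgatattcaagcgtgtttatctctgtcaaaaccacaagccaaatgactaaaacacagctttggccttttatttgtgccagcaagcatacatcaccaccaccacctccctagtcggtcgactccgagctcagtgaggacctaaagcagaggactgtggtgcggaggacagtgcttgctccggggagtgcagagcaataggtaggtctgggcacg
Hadhb: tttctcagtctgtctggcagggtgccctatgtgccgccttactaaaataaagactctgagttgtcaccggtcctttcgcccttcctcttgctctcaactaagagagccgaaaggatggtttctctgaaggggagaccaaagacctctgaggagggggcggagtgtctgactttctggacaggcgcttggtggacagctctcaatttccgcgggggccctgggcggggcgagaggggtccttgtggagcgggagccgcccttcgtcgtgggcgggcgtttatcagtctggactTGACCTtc
Eci1: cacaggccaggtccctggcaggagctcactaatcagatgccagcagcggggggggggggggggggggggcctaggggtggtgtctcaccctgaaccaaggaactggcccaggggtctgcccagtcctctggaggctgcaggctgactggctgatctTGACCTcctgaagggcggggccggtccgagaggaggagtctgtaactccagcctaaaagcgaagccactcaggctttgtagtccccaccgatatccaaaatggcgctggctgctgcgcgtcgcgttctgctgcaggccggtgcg
The Cpt1a window held no AGGTCA on either strand, the Hadhb window held 1 whose first printed base lay at position 43 after the start, and the Eci1 window held 1 at position -94. The hexamer occurred in 16.2% of all 33469 rat windows and in 15.2% of the 1351 windows of genes tested here. A direct repeat, AGGTCA and AGGTCA with any 1 base between, on either strand, occurred in 0.0538% of all windows and in none of these 3. A match describes letters, not a binding site.

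Values below are log2 signals after quantile normalization, each probe set is compared only with itself, values after ± are standard errors of a difference unless called SD, and a difference was called at an adjusted p under 0.05. The floor was 6.85, and no array was at the floor in the probe sets used for the 4 genes. Over 14 arrays the deposited signal ran from 433 to 1234 for Cpt1a, 742 to 1263 for Hadhb, 1656 to 4531 for Eci1 and 4647 to 10537 for Acaa2. All 4 genes were among the 1909 features tested. In whole liver, fewer cells of a type and less RNA per cell cannot be told apart. The array labelled Wistar control 2 stood apart from its label. Its nearest array was Kyoto day 3 replicate 2 (r = 0.96 across genes), and over 79 features that separate the fed strains its median position was 0.936, where 0 is the fed Wistar mean and 1 the fed Kyoto mean, against 0.0874 and 0.0696 for controls 1 and 3. Of the 14 arrays 3 lacked 374 or 375 rows: 1 at Kyoto day 1 (replicate 1), 1 of the Wistar controls (control 3) and 1 at Wistar day 14 (replicate 3).

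**Figure D1:**
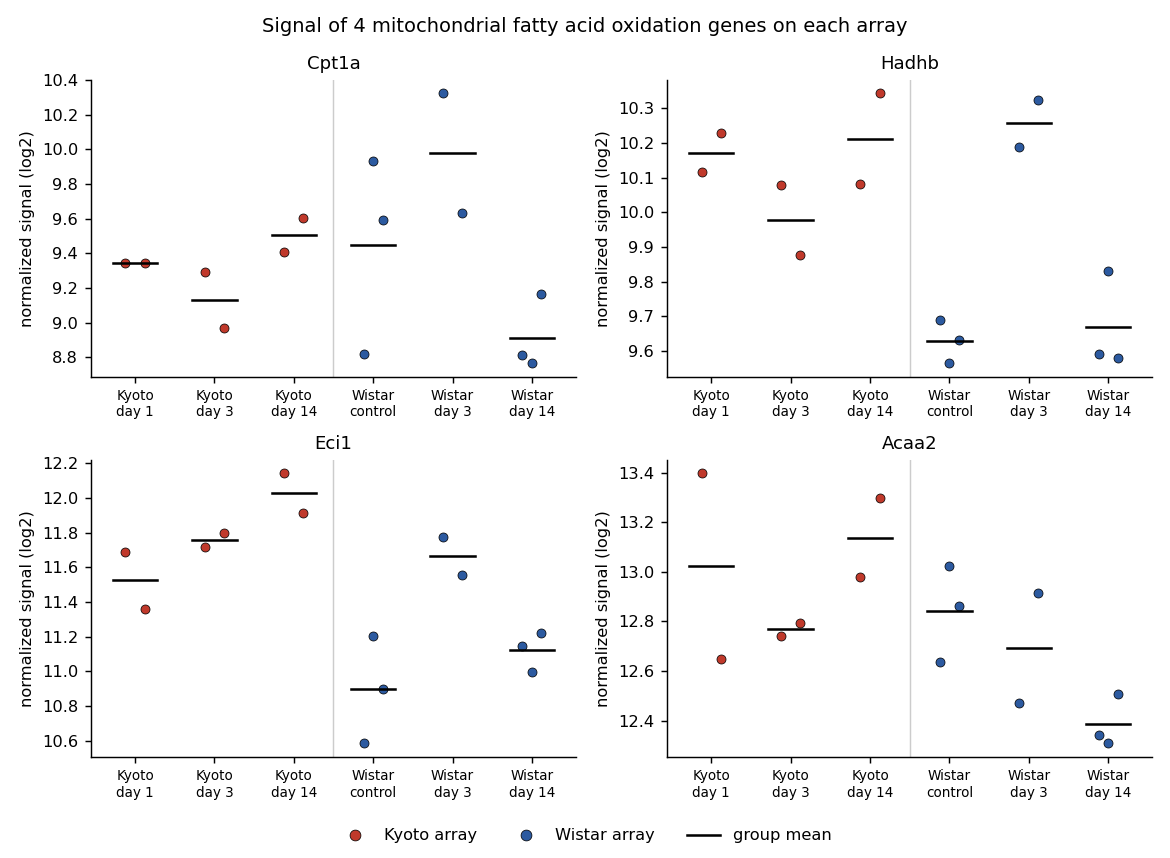
Log2 signal of Cpt1a, Hadhb, Eci1 and Acaa2 on each of 14 arrays by strain and day, with group means. In Wistar the day 14 arrays of Cpt1a (8.77 to 9.16) lie below both day 3 arrays (9.63 and 10.32), and in Kyoto the day 14 arrays of all 4 genes lie above those of day 3. The nearest Kyoto Hadhb arrays of these days lie at 10.081 and 10.077.

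Cpt1a (probe set L07736_at) had log2 signals of 9.35 and 9.34 in Kyoto livers at day 1, 9.29 and 8.97 at day 3, and 9.41 and 9.60 at day 14. In Wistar livers it had 8.82, 9.93 and 9.59 in controls, 10.32 and 9.63 at day 3, and 8.81, 8.77 and 9.16 at day 14. The 2 Wistar day 3 arrays were the highest fed arrays, and the Wistar day 14 arrays were below every other fed Wistar array and below all Kyoto day 14 arrays. The 3 controls spanned most of the range of the gene, so that they overlapped both fed Wistar groups. They overlapped Wistar day 3 through control 2 alone (9.93), and Wistar day 14 through control 1 (8.82). Group means fell in the order Wistar day 3, Kyoto day 14, Wistar control, Kyoto day 1, Kyoto day 3 and Wistar day 14. Among neighbours in that order, the arrays did not overlap between Wistar day 3 and Kyoto day 14 or between Kyoto day 1 and Kyoto day 3, and overlapped in the 3 other pairs.

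Hadhb (D16479_at) had 10.12 and 10.23 in Kyoto livers at day 1, 10.08 and 9.88 at day 3, and 10.08 and 10.34 at day 14. In Wistar livers it had 9.69, 9.57 and 9.63 in controls, 10.19 and 10.32 at day 3, and 9.59, 9.83 and 9.58 at day 14. Wistar controls and Wistar day 14 shared 1 low level, and the Kyoto arrays at all 3 days and the Wistar day 3 arrays lay above it. The SD within groups was 0.121, smaller than in all but 1.9% of the features tested. The order of means was Wistar day 3, Kyoto day 14, Kyoto day 1, Kyoto day 3, Wistar day 14 and Wistar control. Kyoto day 3 lay apart from Kyoto day 1 and from Wistar day 14, its neighbours, and the other neighbours overlapped.

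Eci1 (D00729_g_at) had 11.69 and 11.36 in Kyoto livers at day 1, 11.72 and 11.80 at day 3, and 12.14 and 11.91 at day 14. In Wistar livers it had 10.59, 11.21 and 10.90 in controls, 11.78 and 11.56 at day 3, and 11.15, 10.998 and 11.22 at day 14. As for Hadhb, Wistar controls and Wistar day 14 were the lowest groups and overlapped. Kyoto day 14 was the highest group and lay above Kyoto day 3, which overlapped Wistar day 3. Wistar day 3 in turn overlapped Kyoto day 1, and Kyoto day 1 lay above Wistar day 14.

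Acaa2 (X05341_at) had 13.40 and 12.65 in Kyoto livers at day 1, 12.74 and 12.79 at day 3, and 12.98 and 13.30 at day 14. In Wistar livers it had 12.64, 13.02 and 12.86 in controls, 12.47 and 12.92 at day 3, and 12.34, 12.31 and 12.51 at day 14. Every pair of neighbours in its order of means overlapped (Kyoto day 14, Kyoto day 1, Wistar control, Kyoto day 3, Wistar day 3, Wistar day 14). Wistar day 14 was the lowest group and lay below all 3 controls.

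Between day 14 and day 3, the 4 genes differed in opposite directions in the strains. In Wistar, day 14 was below day 3 by -1.06 ± 0.32 for Cpt1a, -0.59 ± 0.21 for Hadhb and -0.55 ± 0.23 for Eci1, with no overlap of arrays, and by -0.31 ± 0.23 for Acaa2, with overlap. In limma none passed the test (adjusted p = 0.993 for each). Of all features tested, 8.59% had every Wistar day 14 array below every day 3 array, 0 features passed the adjusted threshold and 85 had an unadjusted p under 0.05. The Cpt1a difference was -0.72 without Wistar day 3 replicate 1 and -1.41 without Wistar day 3 replicate 2. The Acaa2 difference was -0.53 without the first of these and -0.09 without the other.

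In Kyoto, day 14 exceeded day 3 by 0.38 ± 0.35 for Cpt1a, 0.24 ± 0.23 for Hadhb, 0.27 ± 0.25 for Eci1 and 0.37 ± 0.25 for Acaa2. The day 14 arrays lay above the day 3 arrays in 4 of 4 genes, as in 18.8% of all features tested, and none passed the test (limma adjusted p = 0.979 for each). For Hadhb the nearest arrays were at 10.081 on day 14 and 10.077 on day 3. On the deposited signals, before quantile normalization, the Kyoto arrays of Hadhb and Eci1 overlapped. There, 1 day 14 array had 1105 against 1167 at day 3 for Hadhb, and 3521 against 3654 for Eci1. Again 0 features in all passed, and 88 had an unadjusted p under 0.05. The Cpt1a, Hadhb and Eci1 differences were close to their standard errors, and that of Acaa2 was larger than its own, with a 95% interval of -0.17 to 0.91. With 1 array left out the differences were as low as 0.21 for Cpt1a (without Kyoto day 3 replicate 2), 0.16 for Eci1 (without Kyoto day 14 replicate 1), and 0.10 for Hadhb and 0.21 for Acaa2 (both without Kyoto day 14 replicate 2). That of Hadhb was 0.37 without Kyoto day 14 replicate 1.

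The difference between the strains in this change was tested as an interaction, the Kyoto change minus the Wistar change. It was 1.44 ± 0.47 for Cpt1a (95% interval 0.43 to 2.45), 0.82 ± 0.31 for Hadhb (0.16 to 1.49), 0.81 ± 0.34 for Eci1 (0.10 to 1.53) and 0.68 ± 0.34 for Acaa2 (-0.05 to 1.41). None passed after adjustment over 1909 features (limma adjusted p = 0.854 for each), and neither did any other feature (0%), though 98 features, 5.13%, had an unadjusted p under 0.05. The unadjusted intervals of Cpt1a, Hadhb and Eci1 leave out 0, and that of Acaa2 includes it. The 4 genes were chosen with earlier results of these data known. The comparisons with all features that follow are thus descriptions. The median over the 4 genes was 0.82, against -0.04 over all features tested. Kyoto arrays higher and Wistar arrays lower at day 14 than at day 3, without overlap in either strain, were found in 3 of the 4 genes and in 2.36% of all features. Both shares are for the normalized signals. On the deposited signals Cpt1a kept this pattern, whereas the Kyoto arrays of Hadhb and Eci1 overlapped.

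**Figure D2:**
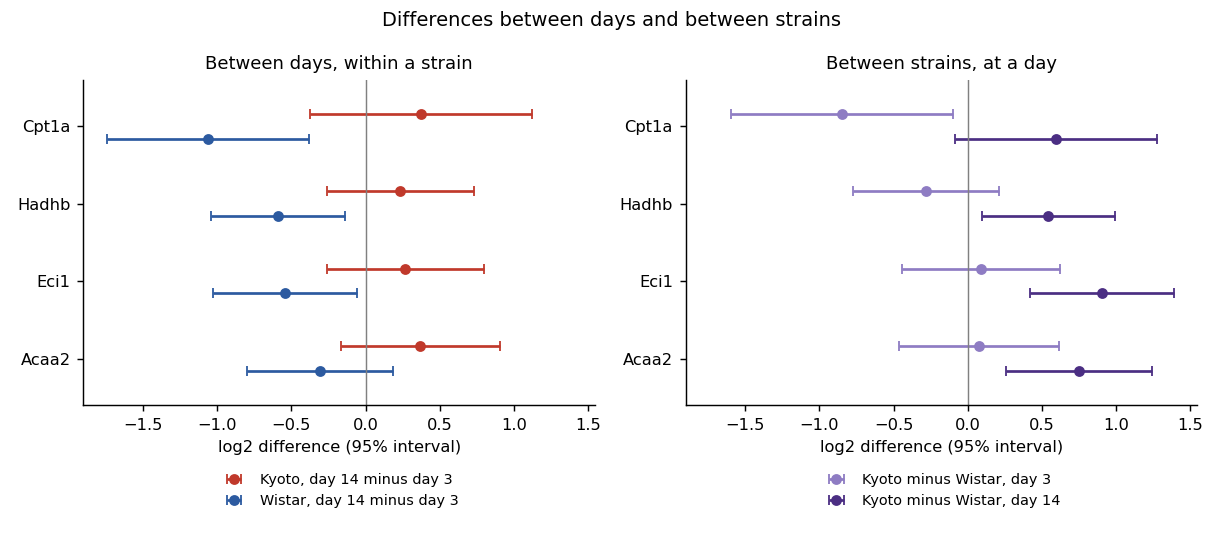
Log2 differences with 95% intervals for the 4 genes, day 14 minus day 3 in each strain and Kyoto minus Wistar at each day. The Wistar changes lie below 0 (-1.06 to -0.31) and the Kyoto changes above it (0.24 to 0.38), and at day 14 all 4 strain differences lie above 0 (0.54 to 0.91).

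With single arrays left out, the interaction ran from 1.09 to 1.79 for Cpt1a, 0.69 to 0.96 for Hadhb, 0.70 to 0.93 for Eci1 and 0.46 to 0.90 for Acaa2. Without the arrays that have no lot batch label, 1 Wistar array is left at day 3. The interaction was then 1.91, 0.71, 0.97 and 0.52 for Cpt1a, Hadhb, Eci1 and Acaa2. The labels name no lot batch other than 1. The lot batch block, here and below, sets the 11 arrays of lot batch 1 against the 3 without a label. With this block the interaction was 1.44, 0.83, 0.81 and 0.65 in the same order. On the signals as the authors scaled them it was 0.46 for Eci1 and 0.36 for Acaa2. The summed signal of 8 measured stellate cell and fibroblast markers out of 12 ran from 9046 to 9095 at day 14 and 6705 to 9128 at day 3 in Kyoto, and from 6283 to 8892 at day 14 and 9470 to 10169 at day 3 in Wistar. The sum was thus lower on every Wistar day 14 array than at Wistar day 3, but the 6 markers tested did not share one direction. In Wistar, day 14 minus day 3 was above 0 in 3 and below in 3 (median -0.03), and the interaction was above 0 in 2 and below in 4 (median -0.43, against 0.82 for the 4 genes). None of them passed. The part of these cells in the result was not tested.

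At day 14 all 4 genes were higher in every Kyoto array than in every Wistar array, as were 15.1% of all features tested. The mean of Kyoto day 14 over that of Wistar day 14 was 1.51-fold for Cpt1a (log2 difference 0.59 ± 0.32, adjusted p = 0.648), 1.46-fold for Hadhb (0.54 ± 0.21, adjusted p = 0.365), 1.87-fold for Eci1 (0.91 ± 0.23, adjusted p = 0.116) and 1.68-fold for Acaa2 (0.75 ± 0.23, adjusted p = 0.206). None passed, while 13 features in all did (0.681%). That count was 0 without either Kyoto day 14 array and without Wistar day 14 replicate 1 or 2. Eci1 passed with array weights (0.90, adjusted p = 0.0285). Endothelial markers, 2 of 8 measured, summed to 390 and 474 in Kyoto at day 14 against 229 to 267 in Wistar, where the floor was a signal of 115 for each gene. Of these markers only 1 was above the signal filter and tested (0.82, not called). The part of such cells was not tested.

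At day 3 the strains differed by -0.85 ± 0.35 for Cpt1a (adjusted p = 0.308) and -0.28 ± 0.23 for Hadhb (adjusted p = 0.629), Kyoto being lower on every array, as in 21.2% of all features, of which 0.21% were called. For Eci1 and Acaa2 the differences were 0.09 ± 0.25 and 0.07 ± 0.25, with overlap and with intervals of -0.44 to 0.62 and -0.47 to 0.61. The Cpt1a value was -0.50 without Wistar day 3 replicate 1. Averaged over days 3 and 14, Kyoto exceeded Wistar by 0.50 ± 0.17 for Eci1 (adjusted p = 0.141) and 0.41 ± 0.17 for Acaa2 (adjusted p = 0.263), whereas Cpt1a (-0.13 ± 0.24) and Hadhb (0.13 ± 0.16) had opposite signs at the 2 days and averages near 0. None of the 4 was among the 62 features called in that comparison (3.25%).

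Against Wistar controls, Hadhb and Eci1 were higher on both Wistar day 3 arrays than on any control, as were 14.6% of all features. The differences were 0.63 ± 0.21 for Hadhb (adjusted p = 0.301) and 0.77 ± 0.23 for Eci1 (adjusted p = 0.251), and neither passed. They were 0.60 and 0.93 without the array labelled Wistar control 2. On the second Eci1 probe set, described below, the difference was 0.27 ± 0.29 and the arrays overlapped. This overlap came from control 2 alone (11.23, against 11.05 and 11.13 at Wistar day 3 and 10.45 and 10.79 in controls 1 and 3). Cpt1a differed by 0.53 ± 0.32 and Acaa2 by -0.15 ± 0.23, both with overlap, which for Cpt1a came from control 2 alone. The Cpt1a value was 0.77 without control 2, 0.21 without control 1 and 0.18 without Wistar day 3 replicate 1.

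At day 14 Hadhb stood 0.04 ± 0.19 and Eci1 0.23 ± 0.20 from the Wistar controls, with intervals of -0.36 to 0.44 and -0.21 to 0.66. The Eci1 value was 0.38 without control 2, 0.07 without control 1 and -0.17 on the second Eci1 probe set. Acaa2 differed by -0.46 ± 0.21 (adjusted p = 0.893), below every control as were 6.34% of all features, and by -0.37 without control 2. Cpt1a differed by -0.54 ± 0.28 (adjusted p = 0.973). Without control 2 that value was -0.29 and without control 1 it was -0.85, since control 2 was the highest and control 1 the lowest of the 3. In each of these comparisons with controls limma called 0 features in all, with 200 at day 3 and 99 at day 14 at an unadjusted p under 0.05.

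Against day 1 in Kyoto, none of the 4 genes passed the test. Day 3 differed from day 1 by -0.21 ± 0.35 for Cpt1a, -0.20 ± 0.23 for Hadhb, 0.23 ± 0.25 for Eci1 and -0.26 ± 0.25 for Acaa2. Both Cpt1a and Hadhb arrays at day 3 lay below those of day 1 (12.6% of all features), and Eci1 arrays lay above (15.5%). Day 14 differed from day 1 by 0.16 ± 0.35 for Cpt1a, 0.04 ± 0.23 for Hadhb, 0.50 ± 0.25 for Eci1 (adjusted p = 0.516) and 0.12 ± 0.25 for Acaa2. Cpt1a and Eci1 were higher on every day 14 array than at day 1, as in 19% of all features, and 1 feature in all passed (0.0524%), none of the 4. Acaa2 had the widest day 1 pair, 13.40 on the array with blank rows and 12.65 on the other, and the sign of its differences from day 1 turned with the array left out.

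Eci1 was the gene with several probe sets, and they did not give the same time course. The probe set used here was D00729_g_at, and a second, rc_AI170568_s_at, also had high signals. The last, rc_AA799541_at, was at the floor on 12 of 14 arrays and gives no order of groups. The second probe set had 11.97 and 11.28 in Kyoto at day 1, 11.40 and 11.87 at day 3, and 11.82 and 11.43 at day 14. Wistar controls gave 10.45, 11.23 and 10.79, Wistar day 3 gave 11.05 and 11.13, and Wistar day 14 gave 10.68, 10.39 and 10.89. All its Kyoto arrays lay above all its Wistar arrays, as in 0.629% of the features tested. Shares of features set beside this probe set, here and below, are over the 1909 features, among which it was not.

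On that probe set Kyoto exceeded Wistar by 0.97 ± 0.29 at day 14 (adjusted p = 0.207) and by 0.55 ± 0.32 at day 3 (adjusted p = 0.498), with no overlap at either day (15.1% of all features at day 14 and 28.5% at day 3), and by 0.76 ± 0.22 over both (adjusted p = 0.0825). Day 14 minus day 3 was -0.01 ± 0.32 in Kyoto and -0.44 ± 0.29 in Wistar, where all day 14 arrays were lower. Its interaction was 0.43 ± 0.43, about its own standard error, against 0.81 on the first probe set. Both probe sets thus gave Kyoto the higher level at day 14, but only the first had every Kyoto day 14 array above day 3 and every Wistar day 3 array above the controls. The difference between the probe sets was not tested. Whether the probes capture both strains' Eci1 transcripts equally well was not tested.

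**Figure D3:**
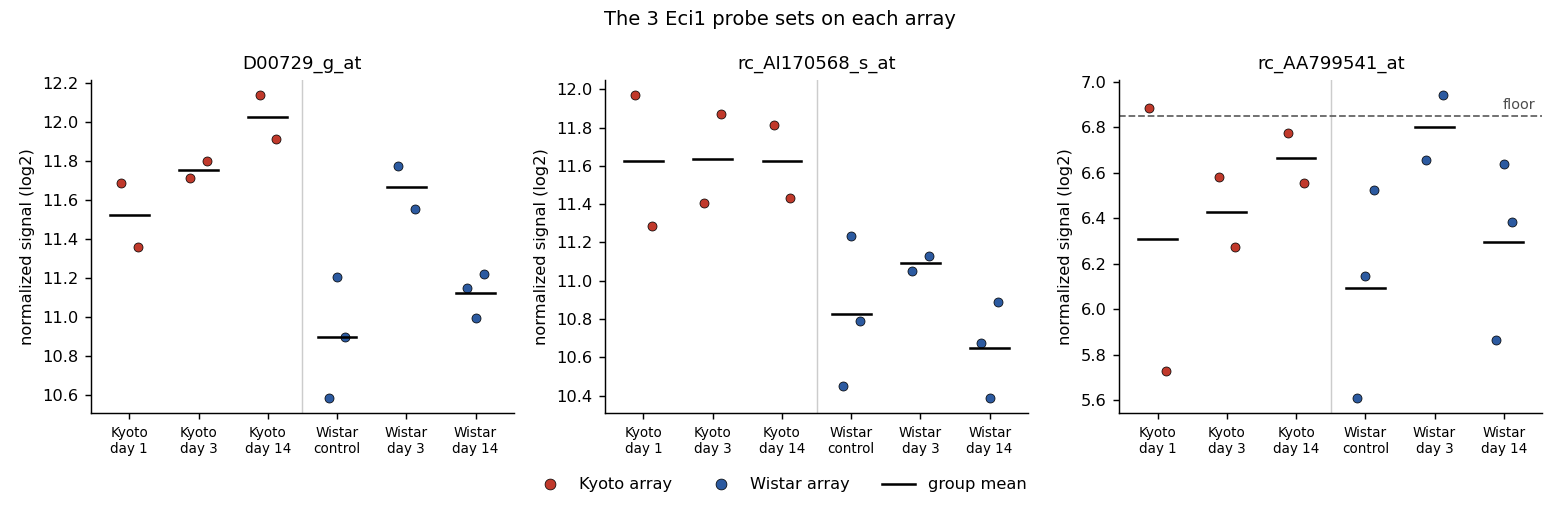
Log2 signal of each Eci1 probe set on each array, by strain and day. The last panel shows rc_AA799541_at, which was at the floor (dashed line) on 12 of 14 arrays. On the second probe set the Kyoto group means lie between 11.62 and 11.64 at all 3 days and the Wistar means between 10.65 and 11.09.

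Hadhb could be set beside Hadha, which encodes the other subunit of the trifunctional protein. The RefSeq start windows of the genes lie on opposite strands and share 200 of 300 bases. Hadha had 10.58 and 11.11 in Kyoto at day 1, 11.09 and 11.27 at day 3, and 11.15 and 11.21 at day 14. Wistar controls gave 10.95, 11.24 and 11.18, Wistar day 3 gave 11.17 and 11.10, and Wistar day 14 gave 10.83, 11.19 and 11.02. Both Kyoto day 14 arrays lay above both day 1 arrays (0.33 ± 0.25, adjusted p = 0.671), and the groups overlapped in the other comparisons made. Its interaction was 0.12 ± 0.33 (adjusted p = 0.963), against 0.82 for Hadhb, and its Kyoto minus Wistar difference at day 14 was 0.17 ± 0.22, against 0.54 for Hadhb. The difference between the subunits was not tested.

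**Figure D4:**
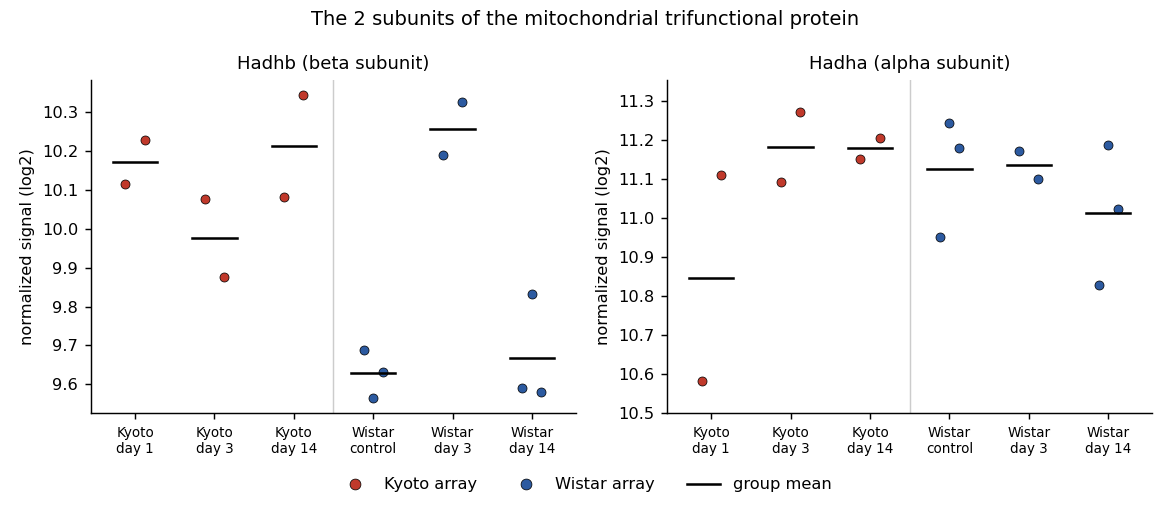
Log2 signal of Hadhb and Hadha on each array by strain and day, each gene on its own scale. Hadhb arrays of Wistar controls and Wistar day 14 (9.57 to 9.83) lie below all other Hadhb arrays, whereas the Hadha arrays of Wistar controls and Wistar day 14 overlap those of every other group.

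The wider pathway was followed with a list of 23 other beta-oxidation genes, of which 17 had a probe set and 14 were tested. In the interaction 0 of 14 passed, 10 were above 0 and 4 below, with a median of 0.11 against -0.04 over all features. The dehydrogenases that open the cycle spanned the list. Acadm, for medium chains, had 0.91 ± 0.54, Acadvl, for very long chains, 0.29 ± 0.38, Acadl, for long chains, -0.01 ± 0.44, and Acads, for short chains, -0.40 ± 0.42. Acadsb, for branched short chains, had 1.70 ± 0.75, but 3 of its arrays were at the floor.

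The remaining genes of the list lay closer to 0 than any of the 4 enzymes. Etfa and Etfdh, which pass on the electrons, had 0.59 ± 0.62 and 0.18 ± 0.68. Cpt2, which takes fatty acids back off carnitine in the matrix, and the carnitine carrier Slc25a20 each had -0.21 (± 0.35 and ± 0.48). The reductase Decr1, which like Eci1 serves unsaturated fatty acids, had 0.35 ± 0.51. The hydratase Echs1 had 0.01 ± 0.67, Hsd17b10 had 0.04 ± 0.38 and Ech1 had 0.10 ± 0.49. Carnitine entry thus held the largest interaction of the 4 genes, in Cpt1a, and a value below 0 in Cpt2 and Slc25a20, with no test between them.

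**Figure D5:**
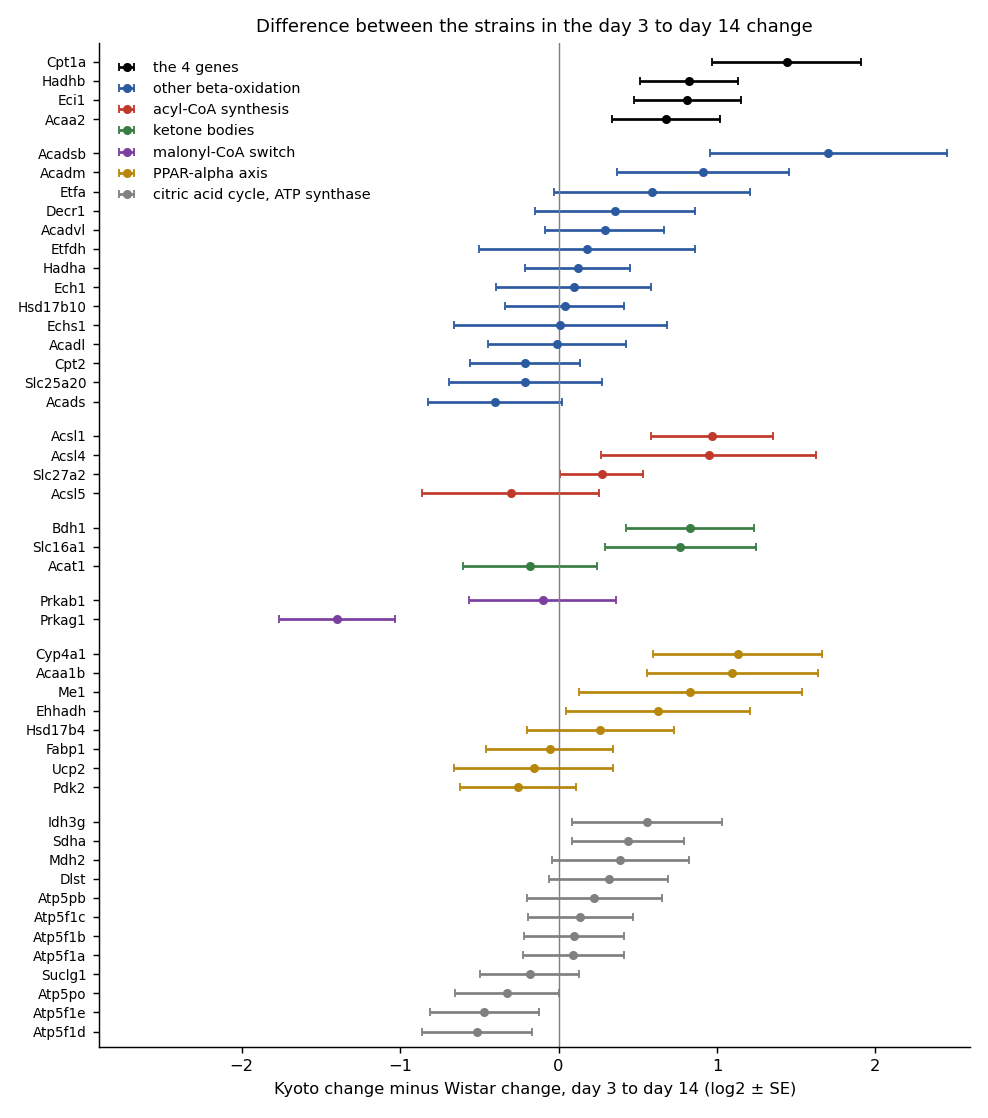
Interaction (Kyoto change minus Wistar change from day 3 to day 14, log2, bars ± SE) for the 4 genes and the tested genes of 6 lists. The 4 genes lie between 0.68 and 1.44, and the listed genes lie on both sides of 0, from Prkag1 at -1.40 to Acadsb at 1.70.

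Upstream of Cpt1a, 13 genes of acyl-CoA synthesis were listed and 4 were tested. Acsl1, the main acyl-CoA synthetase of liver, was the single gene of the 6 metabolic lists to pass, in the mean of days 3 and 14. It had 11.25 and 10.46 in Kyoto at day 3 and 11.50 and 11.66 at day 14, whereas Wistar day 3 gave 12.23 and 12.12 and Wistar day 14 gave 12.18, 11.95 and 11.66. It was lower in Kyoto by -0.84 ± 0.19 (adjusted p = 0.0309), one of 38 features called lower (1.99%). The call held in 18 of 30 alternatives, over all of which the difference ran from -1.03 to -0.59 and the adjusted p reached 0.131. It was lost without any one of Kyoto day 3 replicate 2, both Kyoto day 14 arrays, both Wistar day 3 arrays and Wistar day 14 replicates 1 and 2, where the difference ran from -0.88 to -0.64. It was also lost on the signals as the authors scaled them (-0.79), on median-centred arrays (-0.80), without a filter (-0.84), with the lot batch as a block (-0.88) and on lot batch 1 alone (-0.93). Its interaction was 0.97 ± 0.39 (adjusted p = 0.854), the same sign as that of Cpt1a. Acsl5, another synthetase, differed by -0.83 ± 0.28 between the strains (adjusted p = 0.142).

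Downstream and regulatory genes gave no call in the interaction. Of 6 ketone body genes 3 were tested, with 0.83 ± 0.41 for Bdh1, which makes 3-hydroxybutyrate, 0.77 ± 0.48 for the transporter Slc16a1 and -0.18 ± 0.42 for Acat1. Of 7 genes around malonyl-CoA 2 were tested, both subunits of the AMP-activated kinase. Prkag1 had -1.40 ± 0.37 (adjusted p = 0.817), while Prkab1 had -0.10 ± 0.47. At day 14 Prkag1 was lower in Kyoto by -0.79 ± 0.25 (adjusted p = 0.206), with no overlap, as in 12.6% of all features. Of 25 genes of the PPAR-alpha axis 8 were tested, 5 above 0 and 3 below, with a median of 0.45. Cyp4a1, a fatty acid hydroxylase, had 1.13 ± 0.53, the peroxisomal thiolase Acaa1b 1.10 ± 0.54 and the fatty acid binding protein Fabp1 -0.06 ± 0.40. Of 37 citric acid cycle and ATP synthase genes 12 were tested, 8 above 0 and 4 below, with a median of 0.12 and the extremes Idh3g at 0.56 ± 0.47 and Atp5f1d at -0.52 ± 0.35.

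The 4 genes were also set against 1501 other single-symbol features by the root mean square difference of gene-centred log2 signals over 14 arrays, as a description. Nearest to Cpt1a were Amacr (0.36), Tgoln2 (0.36) and Serpina1 (0.37), only a little closer than a flat line would be, since Cpt1a itself lay 0.43 from its own mean. Nearest to Hadhb were Slc25a5, the mitochondrial ADP/ATP carrier (0.21), Ube2b (0.21) and Nnt, a mitochondrial transhydrogenase (0.22), against 0.28 from its own mean. Nearest to Eci1 were Ech1, a dienoyl-CoA isomerase (0.30), Got1 (0.30) and Tmed10 (0.31), against 0.43. Nearest to Acaa2 were Fn1 (0.19), Ap2m1 (0.20) and Psmc4 (0.22), against 0.32. Among the 4 genes the closest pair was Hadhb and Eci1 (0.31), and 7.9% of the features were closer to Hadhb than Eci1 was.

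Hepatocyte markers, 11 of 12 measured, were high in every group. Their summed signals were 178718 to 194145 on Kyoto arrays and 172230 to 190572 on Wistar arrays. None of them was at the floor on all 14 arrays. Kupffer cell and macrophage markers, 6 of 12 measured, summed to 7029 and 7771 in Kyoto at day 3 against 5291 and 5335 in Wistar at day 3, and to 5767 and 7051 against 4619 to 6255 at day 14. In the mean of days 3 and 14, 4 of 5 tested were above 0 (median 0.57), and Clec4f, a Kupffer cell lectin, was higher in Kyoto by 0.82 ± 0.20 (adjusted p = 0.0418), one of 24 features called higher (1.26%). The call held in 16 of 30 alternatives, over which the difference ran from 0.75 to 0.88 and the adjusted p reached 0.185. It was lost without any one of the 4 Kyoto arrays of days 3 and 14, the 2 Wistar day 3 arrays, Wistar day 14 replicates 1 and 2 and Wistar control 3. It was also lost on median-centred arrays, without a filter, with every probe set on its own, with the lot batch as a block and on lot batch 1 alone. Erythroid markers, 2 of 5 measured, summed to 6730 to 16442 on Kyoto arrays and 5832 to 13581 on Wistar arrays. Of the cholangiocyte markers 2 of 6 were measured and Epcam was at the floor on all arrays, and the 2 adipocyte markers of 5 summed to 706 to 1424 over all groups. The part of these cells in the differences was not tested.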

How the data were processed

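The authors deposited linear probe set intensities, which the submitters' processing notes credit to MAS5. Its version and scaling target are unstated there. On 11 of 14 arrays the deposited median was the same. Rows with a blank on any array (375) and 24 control probe sets were left out. Log2 signals were quantile normalized and floored at the 25th percentile (a signal of 115). The probe set with the highest mean stood for a gene, which gave 3181 features, and the upper 60% by mean, 1909, were tested. All 14 arrays entered 1 limma model of 6 group means (limma 3.58.1, R 4.3.3; lmFit, eBayes with an intensity trend, 8 residual degrees of freedom). Its adjusted p-values are Benjamini-Hochberg over 1909 features in each of 10 comparisons. The 2 Eci1 probe sets were also fitted among all probe sets above the same filter, where the adjusted p-values of the second were taken from (2466 probe sets).

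Groups came from the source labels, which do not state that each array was a separate animal, so p-values measure the spread between these samples. The number of arrays limits the precision. In simulated data with normal noise, sets of 50 among 1909 features were raised 1.5-, 2-, 4- and 8-fold at Kyoto day 14 alone. The interaction test recovered 2% of 1.5-fold, 30% of 2-fold and 78% of 4-fold changes and made 104 calls. It called 0 features in the data, where fewer or smaller changes would make the adjustment stricter. The shares can thus overstate recovery in the data. Start windows and motifs were read from RefSeq (GRCr8).

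The members and gene lists were chosen with earlier results of these data known. Named genes are the 4 members, up to 3 tested genes per list and comparison with the smallest p, every tested beta-oxidation gene in the interaction, and the 3 features nearest to each member; list genes with other p-values, the extremes of the citric acid cycle list and the marker sums were chosen after their values were seen. Alternatives were other scalings, floors, filters, probe set rules and variance settings, array weights, and each array left out. Blocks for having a lot batch label and for blank rows were also fitted. Added after seeing the data were the arrays of lot batch 1 alone, the second Eci1 probe set, and the alternatives for Acsl1 and Clec4f. Clec4f was named after its value was seen.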

Additional observations from a re-analysis of the deposited data

Results flagged for a closer look

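In 3 genes every Kyoto day 14 array lay above every Kyoto day 3 array and every Wistar day 14 array below every Wistar day 3 array, which also held for 2.36% of all features tested. This was on normalized signals. On the deposited signals it held for Cpt1a but not for Hadhb or Eci1, whose Kyoto arrays overlapped. The Kyoto change minus the Wistar change was 1.44 (log2) for Cpt1a, 0.824 for Hadhb and 0.814 for Eci1. The difference itself was tested as an interaction in limma and did not pass in any of the 3 (adjusted p = 0.854 for each). On the second Eci1 probe set it was 0.43. The genes were chosen with earlier results of these data known, so the share of 2.36% is set beside them as a description.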

How the results depend on the processing

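Of 1210 values of the 4 genes over 40 results and 31 alternatives, 1193 kept direction and side of the threshold, 16 changed sign, and 1 newly passed: Eci1, Kyoto minus Wistar at day 14 with array weights, 0.90. The interaction changed sign in none of the 4 genes. The sign changes touched uncalled values, and their cause was not tested. Without the 3 arrays with blank rows, Acaa2 was 0.12 for Kyoto day 3 minus day 1 and Hadhb -0.016 for Kyoto day 14 minus day 1. On lot batch 1 alone Eci1 was -0.018 for Kyoto minus Wistar at day 3. On the second Eci1 probe set, Wistar day 14 minus control was -0.17, Kyoto day 14 minus day 1 -0.005 and Kyoto day 14 minus day 3 -0.013.

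With single arrays left out, Kyoto day 14 minus day 1 ran from -0.091 to 0.17 for Hadhb and from -0.26 to 0.49 for Acaa2, with -0.016 for Hadhb and -0.044 for Acaa2 among them. Acaa2 ran from -0.63 to 0.12 for Kyoto day 3 minus day 1, from -0.37 to 0.075 for Wistar day 3 minus control and from -0.15 to 0.30 for Kyoto minus Wistar at day 3. Eci1 ran from -0.018 to 0.20 for Kyoto minus Wistar at day 3, Hadhb from -0.043 to 0.082 for Wistar day 14 minus control, and Cpt1a from -0.30 to 0.046 for Kyoto minus Wistar over both days.

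The number of features called stayed at 0 for the interaction and for Wistar day 14 minus day 3 under every alternative run. For Kyoto minus Wistar over both days it was 62, and 135 with array weights, 103 on only the groups compared, 39 in the upper 40%, 21 with the lot batch block and on lot batch 1 alone, and 1 without a filter on low signals. For Kyoto minus Wistar at day 14 it was 13, and 32 with array weights, 27 on only the groups compared, 6 in the upper 40% and with every probe set on its own, and 5 with a floor at the 10th percentile, with the mean of a gene's probe sets and without an intensity trend. It was 4 without a floor, 2 with a block for blank rows, 1 without those arrays and on lot batch 1 alone, and 0 without a filter and with the lot batch block. For Kyoto minus Wistar at day 3 it was 4, and 45 with array weights, 42 on only the groups compared, 11 without the arrays with blank rows, 2 with a block for them and with every probe set on its own, 1 without a filter, in the upper 40% and with the lot batch block, and 0 on lot batch 1 alone.

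For Wistar day 3 minus control it was 0, and 19 with array weights, 8 without the arrays with blank rows, 5 on only the groups compared and with the mean of probe sets, and 1 with every probe set on its own and on lot batch 1 alone. For Wistar day 14 minus control it was 0, and 5 without the arrays with blank rows, 3 on lot batch 1 alone and 1 with array weights. For Kyoto day 14 minus day 1 it was 1, and 4 with every probe set on its own, 3 without a filter, 2 with the mean of probe sets, and 0 with array weights, on only the groups compared and on lot batch 1 alone. For Kyoto day 3 minus day 1 it was 0, and 2 without a filter and 1 without the arrays with blank rows. For Kyoto day 14 minus day 3 it was 0, and 1 without a filter and with array weights.

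With single arrays left out, the counts ran from 13 to 92 for Kyoto minus Wistar over both days, 0 to 34 at day 14 and 0 to 33 at day 3. They ran from 0 to 6 for Wistar day 3 minus control, 0 to 7 for Wistar day 14 minus control, 0 to 162 for Kyoto day 14 minus day 1, 0 to 73 for Kyoto day 3 minus day 1 and 0 to 1 for Kyoto day 14 minus day 3. The 162 and 73 both came without Kyoto day 1 replicate 2, which leaves the array with blank rows as the only one of its day. No paired analysis was made, since the labels pair no array of a group with an array of another. They also give no replicate numbers, and those used here only tell the arrays of a group apart. The cause of these differences in counts was not tested.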
